A study of Homo sapiens with 12 samples.

Results

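The genes described here are the MYC, MAX and MXD network, a family of transcription factors that bind DNA in pairs through helix-loop-helix and leucine-zipper domains. The members were MYC, MYCL, MAX, MXD1, MXD3, MXD4, MXI1, MNT, MLX and MLXIPL, and a probe set counted as a member's when the array annotation gave it that gene symbol and no other. Of the 10 genes, 9 had such a probe set, out of 19775 genes with a probe set of 1 symbol, and they held 22 of the 54675 probe sets on the array. All 3 probe sets of MXD4 also list a second gene, so MXD4 is not analysed here. MAX had 5 probe sets, MLX had 6, MXD1 had 3, MYCL and MNT had 2 each, and MYC, MXI1, MXD3 and MLXIPL had 1 each.

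MAX is the shared partner of the network. MYC and MYCL bind with MAX to E-box sequences and activate genes of growth and biosynthesis, while MXD1, MXD3, MXI1 and MNT bind with MAX to the same sequences and recruit SIN3 corepressor complexes. MLX is a second hub, which pairs with the glucose-responsive factors MLXIP (MondoA) and MLXIPL (ChREBP) and also with some MXD proteins. In the intestinal epithelium MYC is a target of Wnt signalling, kept on in the dividing cells of the crypt, and MXD1 is known from differentiating cells that leave the cycle.

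RNA of 2 derivatives of the human colorectal carcinoma line Ls174T, which carries a stabilising mutation of β-catenin and has active Wnt signalling, was hybridised to Affymetrix U133 Plus 2.0 arrays. Each of the 4 groups had 3 arrays. In the first line, Ls174T-L8, doxycycline for 24 h switched on dominant-negative Tcf4, a form of the Wnt transcription factor TCF4 (gene TCF7L2), and the controls were the same cells without doxycycline. In the second line, Ls174T-pTER-β-catenin, doxycycline for 72 h switched on an shRNA against β-catenin (gene CTNNB1), and the controls were again the same cells without doxycycline. Every group thus carried an inducible construct, and no array here shows doxycycline acting on cells that lack one. The labels state neither the promoters behind the constructs nor whether each line is 1 clone. The line, the construct and the duration differ together between the 2 inductions and cannot be told apart. The labels number the arrays within a group and do not call them separate cultures. The p-values below therefore measure the spread between arrays, which may be technical.

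The arrays were alike in scale, with median signals of 12.1 to 15.3 in arbitrary units, and replicates correlated at r = 0.958 to 0.969 across probe sets. The brightest CTNNB1 probe set averaged 156 ± 21.4 after the shRNA, against 3780 ± 195 uninduced (SD, n = 3 each). On CTNNB1 1554411_at the averages were 22.8 ± 3.89 after the shRNA and 342 ± 20.2 uninduced. The dimmer CTNNB1 probe set 223679_at averaged 42.1 ± 9.1 against 61 ± 11, and its fall was not called (limma, adjusted p = 0.206). Of 7 TCF7L2 probe sets, 5 were called higher after dominant-negative Tcf4, by 1.4-fold to 11.6-fold, and 4 were also called higher after the shRNA, by 1.46-fold to 1.67-fold (limma over all non-control probe sets). The brightest of them, 212761_at, averaged 1140 ± 112 after dominant-negative Tcf4, against 692 ± 22.4 uninduced, and 1210 ± 111 after the shRNA, against 726 ± 54.3 uninduced. The largest called rise with dominant-negative Tcf4 was on 212759_s_at, at 1290 ± 499 against 108 ± 29.5 uninduced. In the shRNA line that probe set averaged 109 ± 14.3 induced and 77.4 ± 2.27 uninduced. The difference between the inductions was called on 212759_s_at and 212762_s_at and on no other TCF7L2 probe set. All 10 epithelial colon markers examined were above the filter on dim probe sets, while 3 of 7 fibroblast, 2 of 6 leukocyte and 1 of 4 endothelial markers were. The summed epithelial signal was 31932.1 to 34837.6 in dnTcf4-induced and 24362.6 to 27084.6 in uninduced dnTcf4 cells, and 26601.8 to 29714.4 in shRNA-induced and 17198.5 to 19204.1 in uninduced shRNA cells. The summed fibroblast signal was 180.9 to 202 in dnTcf4-induced and 105.1 to 123.7 in uninduced dnTcf4 cells, and 90.8 to 156.3 in shRNA-induced and 85.2 to 127.1 in uninduced shRNA cells, and in the dnTcf4 line LUM made up most of the difference (geometric mean 99.1 in dnTcf4-induced and 21.8 in uninduced dnTcf4 cells). COL1A2, COL3A1, VIM, PDGFRB and the leukocyte marker PTPRC were under the filter. The part of these lists in the results below was not tested.

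Promoter sequences were taken from RefSeq (GRCh38.p14) as the 250 bases before an annotated transcription start, and 12 such windows of 9 member genes were used. Any member window on the chromosome of MYC was left out of these 12, while the windows of all genes kept that chromosome. MYC is therefore not covered by these windows. They were searched on both strands for CACGTG, the E-box that the network binds and the same on either strand, and for CTTTGA, the core bound by TCF factors. CACGTG stood in 3 of the 12 windows, those of MXD4, MNT and MLX, and in 2228 of 35116 windows of all genes, or 6.34%. CTTTGA stood in 1 of the 12, that of MXD3, and in 3937 of all windows, or 11.21%. Below are the windows of MXD1, the member with the largest change, at chr2:69914859-69915108 on the plus strand, of MYCL, which fell in both inductions as MYC did, at chr1:39901918-39902167 on the minus strand, and of MNT at chr17:2401061-2401310 on the minus strand and MLX at chr17:42566850-42567099 on the plus strand, which hold the E-box, in capitals.
MXD1 promoter window: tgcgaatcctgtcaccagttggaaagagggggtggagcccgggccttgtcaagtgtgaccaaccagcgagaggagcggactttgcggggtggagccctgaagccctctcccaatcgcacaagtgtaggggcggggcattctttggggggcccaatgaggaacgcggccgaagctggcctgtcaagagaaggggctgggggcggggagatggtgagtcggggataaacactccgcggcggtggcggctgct
MYCL promoter window: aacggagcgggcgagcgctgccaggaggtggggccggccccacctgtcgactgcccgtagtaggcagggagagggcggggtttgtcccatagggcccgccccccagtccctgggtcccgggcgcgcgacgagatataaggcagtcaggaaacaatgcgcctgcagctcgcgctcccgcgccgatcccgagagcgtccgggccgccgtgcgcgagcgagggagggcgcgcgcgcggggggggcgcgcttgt
MNT promoter window: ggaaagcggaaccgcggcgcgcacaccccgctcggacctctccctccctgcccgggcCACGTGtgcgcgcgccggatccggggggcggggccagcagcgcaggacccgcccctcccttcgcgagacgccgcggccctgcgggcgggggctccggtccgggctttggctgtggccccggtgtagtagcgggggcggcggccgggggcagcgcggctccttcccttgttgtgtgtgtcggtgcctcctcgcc
MLX promoter window: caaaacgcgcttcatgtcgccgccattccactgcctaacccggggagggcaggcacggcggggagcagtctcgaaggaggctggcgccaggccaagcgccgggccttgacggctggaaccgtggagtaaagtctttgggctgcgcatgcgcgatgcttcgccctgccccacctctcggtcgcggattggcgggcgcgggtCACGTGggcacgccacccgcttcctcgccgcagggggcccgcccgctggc
The E-box lay 193 bases before the start of MNT and 50 bases before that of MLX. The windows of MXD1 and MYCL held neither motif. A match is a description of the letters in these windows and no sign of binding.

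Of the 22 network probe sets, 21 passed the filter on dim probe sets and were tested; the remaining one, MLX 231401_s_at, had signals of 0.9 to 13.3. A change is called where limma's adjusted p, over all 27280 probe sets tested, was under 0.05. On induction of dominant-negative Tcf4, 8 of 21 network probe sets (38.1%) rose and 3 (14.3%) fell, against 12% and 14.1% of all probe sets tested. On induction of the β-catenin shRNA, 4 of 21 (19%) rose and 7 (33.3%) fell, against 12.2% and 12.9% of all. MXD1 206877_at passed the filter only through the dnTcf4-induced arrays, where it was highest. Without it, 7 of 20 (35%) rose and 3 (15%) fell with dominant-negative Tcf4, and 3 (15%) rose and 7 (35%) fell with the shRNA. The 21 probe sets share genes: 6 genes had a called probe set in each induction, MYC, MYCL, MAX, MXD1 and MXI1 in both, MLX with dominant-negative Tcf4 and MXD3 with the shRNA. MAX was called higher with dominant-negative Tcf4 on 210734_x_at alone, and lower with the shRNA on 3 probe sets. A share of all genes with any called probe set was not computed, so these gene counts have no background beside them. The median log2 change of the 21 was 0.32 with dominant-negative Tcf4 and 0.01 with the shRNA, against −0.04 and 0.01 over all probe sets tested. Whether a fall reflects fewer cells that express a gene or less RNA per cell cannot be told apart in bulk RNA.

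**Figure D1:**
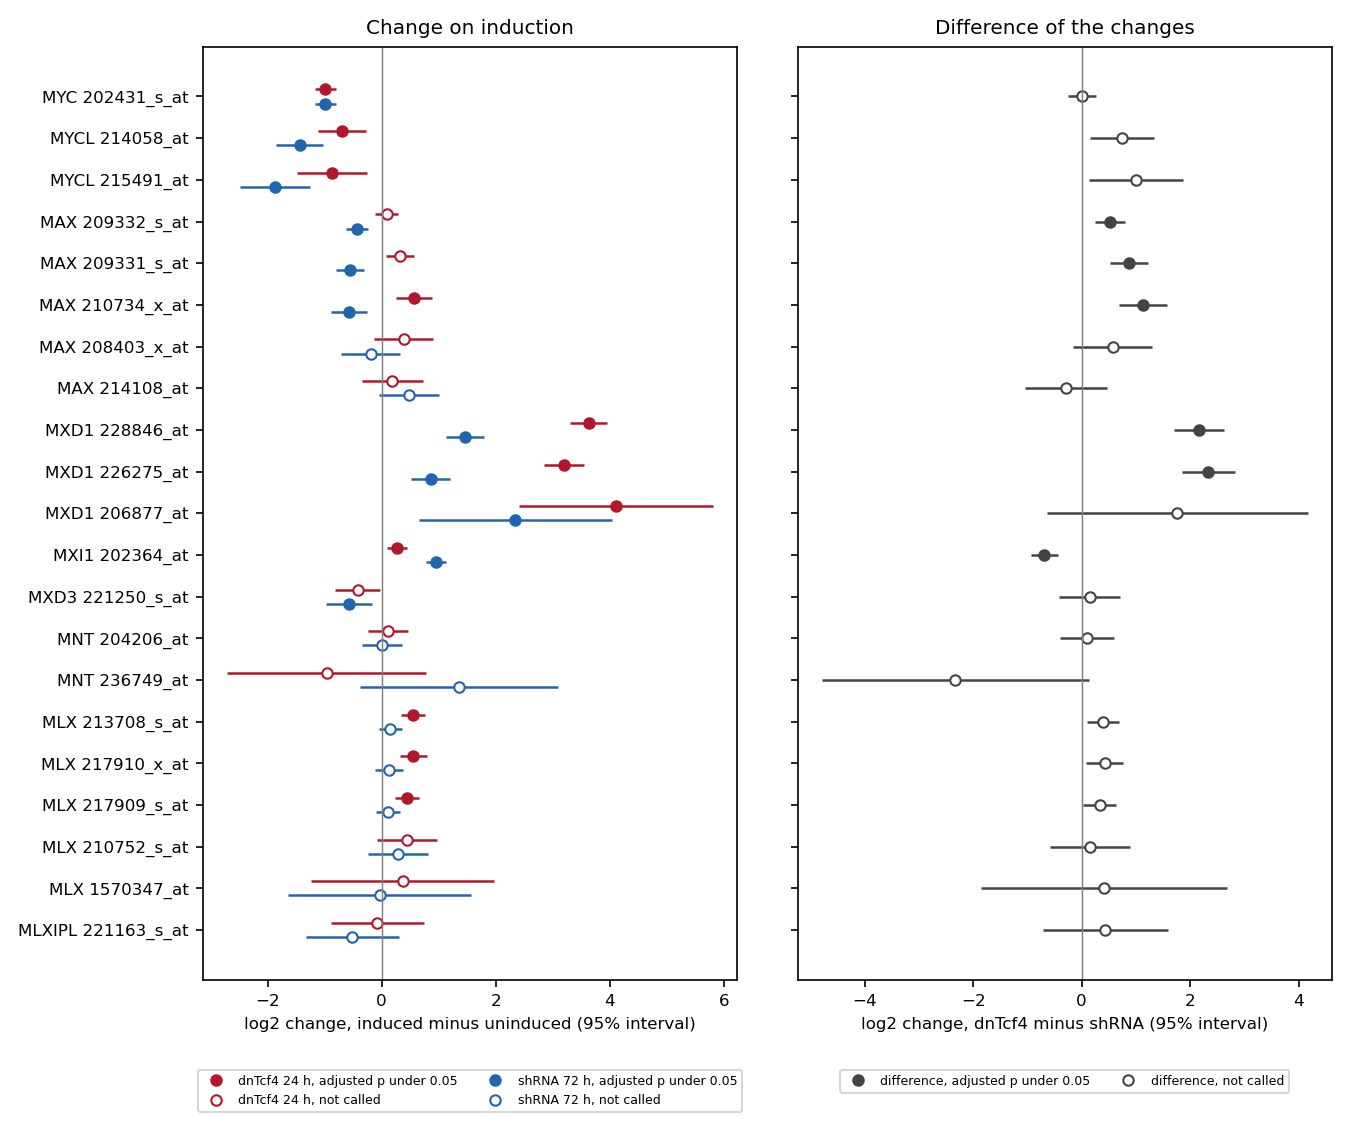
Log2 change of the 21 tested network probe sets on induction (left; dnTcf4 in red, shRNA in blue) and the difference of the changes, dnTcf4 minus shRNA (right). Points are estimates from the limma fit and lines are 95% intervals; filled points have an adjusted p under 0.05. MYC lies at −0.99 in both inductions, MXD1 rose further with dnTcf4, and the 3 MAX probe sets with filled points on the right lie below zero with the shRNA and above it with dnTcf4.

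MYC, the oncogene at the head of the network, fell in both inductions, by 1.99-fold in each. Probe set 202431_s_at had signals of 972.3, 1034.2 and 833 in dnTcf4-induced cells, against 1941.6, 1753.1 and 1925.4 in uninduced dnTcf4 cells. In shRNA-induced cells the signals were 1112.1, 1099.1 and 1156.4, against 2120.4, 2299.8 and 2275.6 in uninduced shRNA cells. All 6 induced arrays lay below all 6 uninduced arrays. The log2 change was −0.99 ± 0.09 (SE) with dominant-negative Tcf4 (limma, adjusted p = 5.5e-07), and −0.99 ± 0.09 with the shRNA (adjusted p = 4.16e-07). The changes differed by 0.00, with a 95% interval of −0.26 to 0.26 (adjusted p = 0.996). By log2 change MYC ranked 965 from the lowest of 27280 probe sets with dominant-negative Tcf4 and 1479 from the lowest with the shRNA. The order of the groups by level was uninduced shRNA, uninduced dnTcf4, shRNA-induced and dnTcf4-induced, and no neighbours in that order overlapped.

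MYCL, a MYC paralogue with the same partner, also fell in both lines, on both of its probe sets. On 214058_at the signals were 70.6, 73.9 and 116.5 in dnTcf4-induced cells, against 152.8, 133 and 127.9 in uninduced dnTcf4 cells, and 46.5, 60.2 and 61.4 in shRNA-induced cells, against 149.1, 175.4 and 131.1 in uninduced shRNA cells. On 215491_at they were 32.6, 35.9 and 33.8 in dnTcf4-induced cells, against 63.4, 69.7 and 54.8 in uninduced dnTcf4 cells, and 17.2, 12.6 and 32 in shRNA-induced cells, against 56.7, 83.5 and 71.7 in uninduced shRNA cells. In each line and on each probe set, the induced arrays were all lower than the uninduced ones. With the shRNA the log2 changes were −1.44 ± 0.20, 2.71-fold lower (limma, adjusted p = 4.74e-05), and −1.87 ± 0.29, 3.66-fold lower (adjusted p = 0.000153). With dominant-negative Tcf4 they were −0.70 ± 0.20 (adjusted p = 0.0146) and −0.87 ± 0.29 (adjusted p = 0.0352). The difference of the changes was 0.74 (95% interval 0.15 to 1.33, adjusted p = 0.102) and 1.0 (0.13 to 1.87, adjusted p = 0.136) and was not called. The dnTcf4 call on 214058_at was lost without induced array 1 (−0.57), induced array 2 (−0.60) or uninduced array 1 (−0.62), and that on 215491_at without any 1 of the 6 dnTcf4 arrays (−0.96 to −0.79). Without shRNA-induced array 3, the difference on 215491_at was 1.37 and passed (adjusted p = 0.0168).

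**Figure D2:**
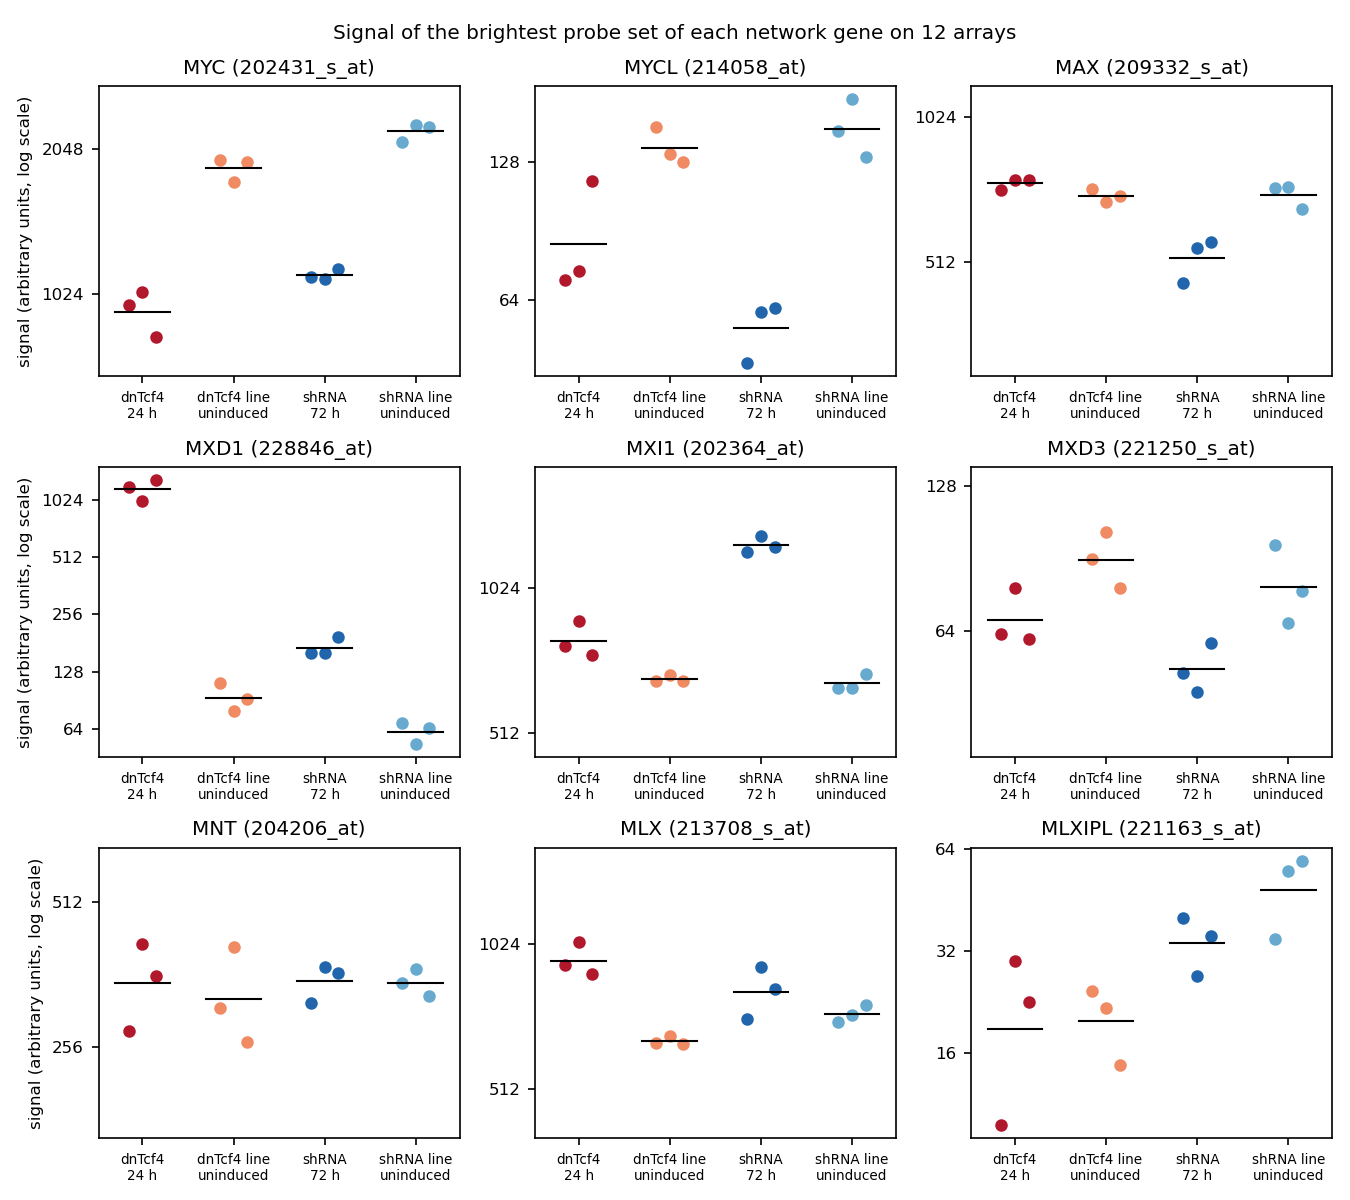
Signal of the brightest probe set of each of the 9 measured genes on the 12 arrays, on log scales that differ between panels. Points are arrays and bars are group geometric means (n = 3); MYC and MYCL are lower and MXD1 is higher in the induced arrays of both lines, MXI1 is highest with the shRNA, and MAX is lowest with the shRNA.

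MAX, the obligate partner of MYC, fell with the shRNA on 3 of its 5 probe sets and fell on none of them with dominant-negative Tcf4. The brightest MAX probe set, 209332_s_at, had signals of 463.3, 545.9 and 562.8 in shRNA-induced cells, against 728.4, 732.6 and 659.9 in uninduced shRNA cells, and 720.8, 758.5 and 757.1 in dnTcf4-induced cells, against 725.2, 680.4 and 701.6 in uninduced dnTcf4 cells. The shRNA-induced arrays lay below all others, and the dnTcf4 groups overlapped. The log2 change with the shRNA was −0.44 ± 0.09, 1.35-fold lower (limma, adjusted p = 0.00209), and with dominant-negative Tcf4 it was 0.09 ± 0.09 (95% interval −0.11 to 0.28, adjusted p = 0.563). On 209331_s_at the signals were 144.2, 152.9 and 166 in shRNA-induced cells, against 216.6, 235.8 and 226.2 in uninduced shRNA cells, a log2 change of −0.55 ± 0.12 (adjusted p = 0.00233). The same probe set read 304.3, 264.4 and 272.5 in dnTcf4-induced cells, against 206.7, 211.7 and 254.8 in uninduced dnTcf4 cells, without overlap, a log2 change of 0.33 ± 0.12 that missed the threshold (adjusted p = 0.0541). It passed with quantile normalization (0.34), a stricter filter, array weights (0.35) or without uninduced dnTcf4 array 3 (0.42).

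Another MAX probe set moved in opposite directions in the 2 lines. On 210734_x_at, whose suffix marks probes that may also match other transcripts, the signals were 237.3, 205.2 and 206.4 in dnTcf4-induced cells, against 137.1, 123 and 182.7 in uninduced dnTcf4 cells. They were 132.7, 108.4 and 129.9 in shRNA-induced cells, against 178.7, 187.5 and 181.8 in uninduced shRNA cells. Induced arrays lay above the uninduced ones in the first line and below them in the second. The log2 changes were 0.57 ± 0.15 (limma, adjusted p = 0.00932) and −0.57 ± 0.15 (adjusted p = 0.00951). Without uninduced dnTcf4 array 2, the change with dominant-negative Tcf4 was 0.45 and was not called. The other MAX probe sets passed in neither induction: 208403_x_at had log2 changes of 0.39 with dominant-negative Tcf4 and −0.19 with the shRNA, and 214108_at had 0.19 and 0.48. The sign on 214108_at with the shRNA was thus opposite to that of the other 4.

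The difference of the changes, dominant-negative Tcf4 minus the shRNA, was called for MAX on 3 of its 5 probe sets. It was 0.52 (95% interval 0.25 to 0.80, limma, adjusted p = 0.0154) on 209332_s_at, 0.88 (0.52 to 1.23, adjusted p = 0.00269) on 209331_s_at and 1.14 (0.69 to 1.58, adjusted p = 0.00217) on 210734_x_at. It was 0.58 (−0.16 to 1.31, adjusted p = 0.334) on 208403_x_at and −0.29 (−1.04 to 0.46, adjusted p = 0.68) on 214108_at. After median centring of the arrays the difference on 209332_s_at was 0.56 and was not called (adjusted p = 0.0733). With no variance trend it was 0.52 and was also not called (adjusted p = 0.0547).

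MXD1, the antagonist that replaces MYC on MAX in differentiating cells, rose in both lines, and rose further with dominant-negative Tcf4. On 228846_at the signals were 1199.3, 1005.4 and 1294.4 in dnTcf4-induced cells, against 111.8, 80.1 and 92 in uninduced dnTcf4 cells. In shRNA-induced cells they were 160.8, 160.5 and 195.5, against 69.3, 53.5 and 64.9 in uninduced shRNA cells. No neighbouring groups overlapped, and the dnTcf4-induced arrays were far above all others. The log2 change was 3.63 ± 0.15 with dominant-negative Tcf4, 12.4-fold higher (limma, adjusted p = 4.51e-10), and 1.46 ± 0.15 with the shRNA, 2.76-fold higher (adjusted p = 3.48e-06).

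The second MXD1 probe set, 226275_at, read 875.7, 700.7 and 1023 in dnTcf4-induced cells, against 87.6, 88.2 and 105.4 in uninduced dnTcf4 cells. It read 84.2, 109.6 and 100.5 in shRNA-induced cells, against 55, 59.8 and 47.3 in uninduced shRNA cells. Here too induced and uninduced arrays of each line did not overlap, while shRNA-induced and uninduced dnTcf4 arrays did. The log2 changes were 3.20 ± 0.16, 9.17-fold higher (limma, adjusted p = 1.66e-09), and 0.86 ± 0.16, 1.81-fold higher (adjusted p = 0.000859). On both probe sets the difference of the changes was called, 2.17 (95% interval 1.70 to 2.63, adjusted p = 1.03e-05) on 228846_at and 2.34 (1.85 to 2.82, adjusted p = 7.51e-06) on 226275_at.

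The remaining MXD1 probe set was dim, and its uninduced signals lay around or under the filter's signal of 10.2, so that the size of its log2 change is not firm. On 206877_at the signals were 148.3, 85.2 and 137.3 in dnTcf4-induced cells, against 11, 1.8 and 16.9 in uninduced dnTcf4 cells, and 33.7, 8.7 and 21.1 in shRNA-induced cells, against 3.5, 9.6 and 1.4 in uninduced shRNA cells. The dnTcf4 groups stood apart and the shRNA groups overlapped. The log2 change was 4.11 ± 0.80 with dominant-negative Tcf4 (limma, adjusted p = 0.0011) and 2.35 ± 0.80 with the shRNA (adjusted p = 0.0414), and the difference was 1.77 (95% interval −0.64 to 4.17, adjusted p = 0.371). This probe set passed the filter only through the dnTcf4-induced arrays, so its dnTcf4 call is no independent support for a rise. With an offset of 3.5 added to each signal, the changes were 3.41 with dominant-negative Tcf4 and 1.55 with the shRNA. The shRNA call was lost without dnTcf4-induced array 1, 2 or 3 (2.35 each), shRNA-induced array 1 (1.91) or 3 (2.25), or uninduced shRNA array 1 (2.32) or 3 (1.66). By log2 change the dnTcf4 rises of the 2 bright MXD1 probe sets ranked 47 (228846_at) and 82 (226275_at) from the highest of 27280.

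MXI1 and MXD3, the other measured members of the MXD family, went opposite ways with the shRNA. On 202364_at, MXI1 had signals of 1217.9, 1313 and 1249.2 in shRNA-induced cells, against 637.4, 635.9 and 681.2 in uninduced shRNA cells, and 775.7, 874.5 and 745.3 in dnTcf4-induced cells, against 657.1, 676.1 and 656.9 in uninduced dnTcf4 cells. Induced arrays were higher in both lines, and the uninduced groups of the lines overlapped. The log2 change was 0.95 ± 0.08 with the shRNA, 1.93-fold higher (limma, adjusted p = 4.43e-07), and 0.26 ± 0.08 with dominant-negative Tcf4, 1.2-fold higher (adjusted p = 0.0274). The difference, dominant-negative Tcf4 minus the shRNA, was −0.69 (95% interval −0.94 to −0.44, adjusted p = 0.00126), the only called difference of a network probe set in that direction. The dnTcf4 call for MXI1 was lost without induced array 2 (0.20) or without any 1 uninduced dnTcf4 array (0.26 to 0.28). It was also lost with arrays centred on the median (adjusted p = 0.135), with no variance trend (0.0686) and with only the arrays compared (0.0533).

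MXD3, an MXD protein expressed in proliferating cells, had signals on 221250_s_at of 52.3, 47.8 and 60.4 in shRNA-induced cells, against 96.2, 66.3 and 77.5 in uninduced shRNA cells. In dnTcf4-induced cells it had 62.9, 78.6 and 61.5, against 90.3, 102.4 and 78.5 in uninduced dnTcf4 cells. The shRNA groups did not overlap, while the dnTcf4 groups met at 78.6 and 78.5. The log2 change was −0.57 ± 0.19 with the shRNA (limma, adjusted p = 0.0344) and −0.42 ± 0.19 with dominant-negative Tcf4 (adjusted p = 0.118), with a difference of 0.15 (95% interval −0.41 to 0.71). The shRNA call was lost without induced array 1 (−0.56), induced array 2 (−0.49), uninduced array 1 (−0.43) or uninduced array 3 (−0.59).

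MNT, the MAX-binding antagonist found in most cells, showed no called change. On 204206_at the signals were 277.1, 419.3 and 359.9 in dnTcf4-induced cells, against 308.1, 412.4 and 261.8 in uninduced dnTcf4 cells, and 316.5, 375.1 and 364.4 in shRNA-induced cells, against 347.4, 372.1 and 327.4 in uninduced shRNA cells. All 4 groups overlapped. The log2 changes were 0.11 (95% interval −0.24 to 0.46) with dominant-negative Tcf4 and 0.01 (−0.34 to 0.36) with the shRNA. The dim second probe set, 236749_at, had signals between 2.5 and 28.4 and log2 changes of −0.97 ± 0.82 and 1.36 ± 0.82, neither called.

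MLX, the partner of MondoA and ChREBP, rose modestly with dominant-negative Tcf4 on its 3 bright probe sets. On 213708_s_at the signals were 926.3, 1035.2 and 887.1 in dnTcf4-induced cells, against 639.5, 661.2 and 635.4 in uninduced dnTcf4 cells, and 715.8, 917 and 828.1 in shRNA-induced cells, against 707.5, 730.1 and 765.9 in uninduced shRNA cells. The dnTcf4 groups stood apart and the shRNA groups overlapped. The log2 changes with dominant-negative Tcf4 were 0.55 ± 0.10 on 213708_s_at (limma, adjusted p = 0.000472), 0.56 ± 0.11 on 217910_x_at (adjusted p = 0.00167) and 0.45 ± 0.10 on 217909_s_at (adjusted p = 0.00361), all between 1.36-fold and 1.47-fold higher. With the shRNA they were 0.15, 0.13 and 0.11, none called. The difference of the changes on these 3 was 0.40 (95% interval 0.11 to 0.69, adjusted p = 0.0723), 0.43 (0.08 to 0.77, adjusted p = 0.107) and 0.33 (0.03 to 0.64, adjusted p = 0.16), so a difference between the inductions was not called for MLX. On 213708_s_at it passed with quantile normalization (0.41), a stricter filter, array weights (0.41) or without shRNA-induced array 2 (0.49). The dim probe sets 210752_s_at and 1570347_at had log2 changes of 0.44 and 0.37 with dominant-negative Tcf4 and 0.29 and −0.04 with the shRNA, none called.

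MLXIPL, which encodes ChREBP, was dim and had no called change on induction. On 221163_s_at the signals were 9.8, 30 and 22.7 in dnTcf4-induced cells, against 24.5, 21.7 and 14.8 in uninduced dnTcf4 cells, and 40.2, 27.1 and 35.6 in shRNA-induced cells, against 34.9, 55.1 and 59.1 in uninduced shRNA cells. Both pairs of groups overlapped, and the uninduced shRNA arrays were all above the uninduced dnTcf4 arrays. The log2 changes were −0.08 (95% interval −0.89 to 0.74) with dominant-negative Tcf4 and −0.52 (−1.33 to 0.30) with the shRNA.

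Before induction the 2 lines differed on 4 of 21 network probe sets (19%), against 29.5% of all probe sets tested, with 2 higher and 2 lower in the dnTcf4 line. MXD1 was higher in uninduced dnTcf4 than in uninduced shRNA cells, by 0.59 ± 0.15 on 228846_at (limma, adjusted p = 0.00834) and 0.80 ± 0.16 on 226275_at (adjusted p = 0.00139). MLXIPL was lower by log2 −1.28 ± 0.38, or 2.44-fold (adjusted p = 0.0187), and MYC by −0.25 ± 0.09, or 1.19-fold (adjusted p = 0.0362). The number of calls was 2 without uninduced dnTcf4 array 1, uninduced shRNA array 2 or uninduced shRNA array 3. Single left-out arrays ended the call for MXD1 228846_at (0.47 without uninduced dnTcf4 array 1), for MLXIPL (−1.07 without uninduced dnTcf4 array 3, −1.19 and −1.14 without uninduced shRNA arrays 2 and 3) and for MYC (−0.28, −0.21 and −0.27 without uninduced dnTcf4 arrays 1, 2 and 3, −0.23 and −0.24 without uninduced shRNA arrays 2 and 3). Centring each array on its median moved the median of all probe sets in this comparison by 0.11, and MYC was then at −0.14 (adjusted p = 0.402).

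The difference of the 2 changes was called for 6 of 21 network probe sets (28.6%), against 11.9% of all probe sets tested, and these belonged to MAX, MXD1 and MXI1. In 5 of the 6 the change was higher with dominant-negative Tcf4 and in 1, that of MXI1, it was higher with the shRNA. The difference for MYC had an interval of −0.26 to 0.26, while those of MXD1 and MXI1 were called in opposite directions. Of all called differences 49.8% were higher with dominant-negative Tcf4, and 60.3% with arrays centred on the median.

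The genes around the network were read from lists drawn up from general knowledge, 1 probe set a gene, the brightest. The lists were chosen with earlier results of these data known, so their shares are descriptions and no independent test. Of 50 genes known as activated by MYC, 44 were tested. With dominant-negative Tcf4, 36 of the 44 (81.8%) fell and 1 (2.27%) rose, against 18.6% and 15% of all 12386 genes tested. With the shRNA, 25 (56.8%) fell and 0 rose, against 16.3% and 15.3% of all genes. The median log2 change of the list was −0.65 with dominant-negative Tcf4 and −0.38 with the shRNA, against −0.05 and 0.02 over all genes. Across the alternatives tried, 31 to 39 of these genes fell with dominant-negative Tcf4 and 21 to 28 with the shRNA.

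Among the activated genes, SLC7A5, an amino acid transporter subunit, fell by 1.86 ± 0.10 on the log2 scale with dominant-negative Tcf4 (limma, adjusted p = 2.22e-09) and by 1.34 ± 0.10 with the shRNA (adjusted p = 5.49e-08). CDC25A, a phosphatase that activates cyclin-dependent kinases, fell by 1.42 ± 0.15 with dominant-negative Tcf4 and by 1.76 ± 0.15 with the shRNA. TCOF1, a factor of ribosomal RNA transcription, fell by 1.40 ± 0.21 with dominant-negative Tcf4, and SLC19A1, the reduced folate carrier, fell by 1.13 ± 0.17 with the shRNA. The 1 gene that rose with dominant-negative Tcf4 was SHMT1, an enzyme of the folate cycle with a dim probe set (adjusted p = 0.0168), with group geometric means of 15.1 in dnTcf4-induced and 3.12 in uninduced dnTcf4 cells. It did not pass the filter without the shRNA-induced arrays, where it was highest. Its call was lost with only the arrays compared (adjusted p = 0.072), without dnTcf4-induced array 2 (0.0612), or without uninduced dnTcf4 array 1 (0.0669) or 3 (0.0635), and it was not tested under the stricter filter.

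For 10 of the 44 activated genes (22.7%), against 15.6% of all genes, the change itself differed between the inductions, and for 9 of the 10 it was lower with dominant-negative Tcf4. These 10 are named because their difference passed, after their values were seen. PUS7, a pseudouridine synthase, differed by −1.27, SRM, which makes spermidine, by −1.06, and CAD, which starts pyrimidine synthesis, by −1.04. With the shRNA these 3 had log2 changes of 0.19, −0.04 and −0.23, none called. The other genes lower with dominant-negative Tcf4 were IMPDH2, NAP1L1, NME1, RCC1, SLC7A5 and PAICS, by −0.79 to −0.47, and the 1 that was higher was MTHFD2, by 0.46. The differences of NME1, SLC7A5, PAICS, RCC1 and MTHFD2 were not called with arrays centred on the median (adjusted p of 0.0659 to 0.104) or with no variance trend (0.0576 to 0.13). Single left-out arrays also ended the calls of SLC7A5 (uninduced dnTcf4 3), MTHFD2 (dnTcf4-induced 1, uninduced dnTcf4 1 or shRNA-induced 3) and RCC1 (any array but dnTcf4-induced 1 and uninduced dnTcf4 1). For RCC1 the call was also lost with no filter (0.0705) and with array weights (0.0666).

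Of 16 genes known as repressed by MYC, 13 were tested. With dominant-negative Tcf4, 7 of them (53.8%) rose and 1 (7.69%) fell, against 15% and 18.6% of all genes. With the shRNA 4 (30.8%) rose and 2 (15.4%) fell, against 15.3% and 16.3% of all genes. The medians were 0.93 with dominant-negative Tcf4 and 0.20 with the shRNA. CDKN2B, the cell-cycle inhibitor p15, rose with dominant-negative Tcf4 (limma, adjusted p = 1.07e-05) and with the shRNA (adjusted p = 1.53e-07). Its probe set was dim, with geometric means of 37.2 in dnTcf4-induced and 5.81 in uninduced dnTcf4 cells, and of 155 in shRNA-induced and 10.1 in uninduced shRNA cells. Both uninduced means lay under the filter's signal of 10.2, so no size is given for these rises. CDKN1A, the cell-cycle inhibitor p21, rose by 2.64 ± 0.12 with dominant-negative Tcf4 (adjusted p = 8.48e-10) and fell by 0.36 ± 0.12 with the shRNA (adjusted p = 0.0412), and the difference of 3.01 was called (adjusted p = 2.01e-08). The shRNA fall of CDKN1A was close to the threshold and was lost (adjusted p of 0.0513 to 0.163) with quantile normalization, median centring, no filter, no variance trend or only the arrays compared. It was also lost without dnTcf4-induced array 1 or 2, shRNA-induced array 1 or 2, or uninduced shRNA array 1 or 2. NDRG1, a differentiation-associated gene, rose by 1.90 ± 0.16 with dominant-negative Tcf4, and NDRG2 fell by 0.64 ± 0.21. The NDRG2 call was lost with no filter, with no variance trend, and without dnTcf4-induced array 1 or uninduced dnTcf4 array 1 or 2 (adjusted p of 0.053 to 0.158). With the shRNA, ID2 rose by 0.63 ± 0.07 and CEBPA by 0.58 ± 0.19, while CCND1, which encodes cyclin D1, fell by 0.88 ± 0.10. CCND1 is also a known Wnt target. The CEBPA call was lost with median centring, with no variance trend, and without shRNA-induced array 1 or 3 or uninduced shRNA array 2 or 3 (adjusted p of 0.0541 to 0.114). For 4 of the 13 genes (30.8%), against 15.6% of all genes, the difference between the inductions was called, each higher with dominant-negative Tcf4.

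**Figure D3:**
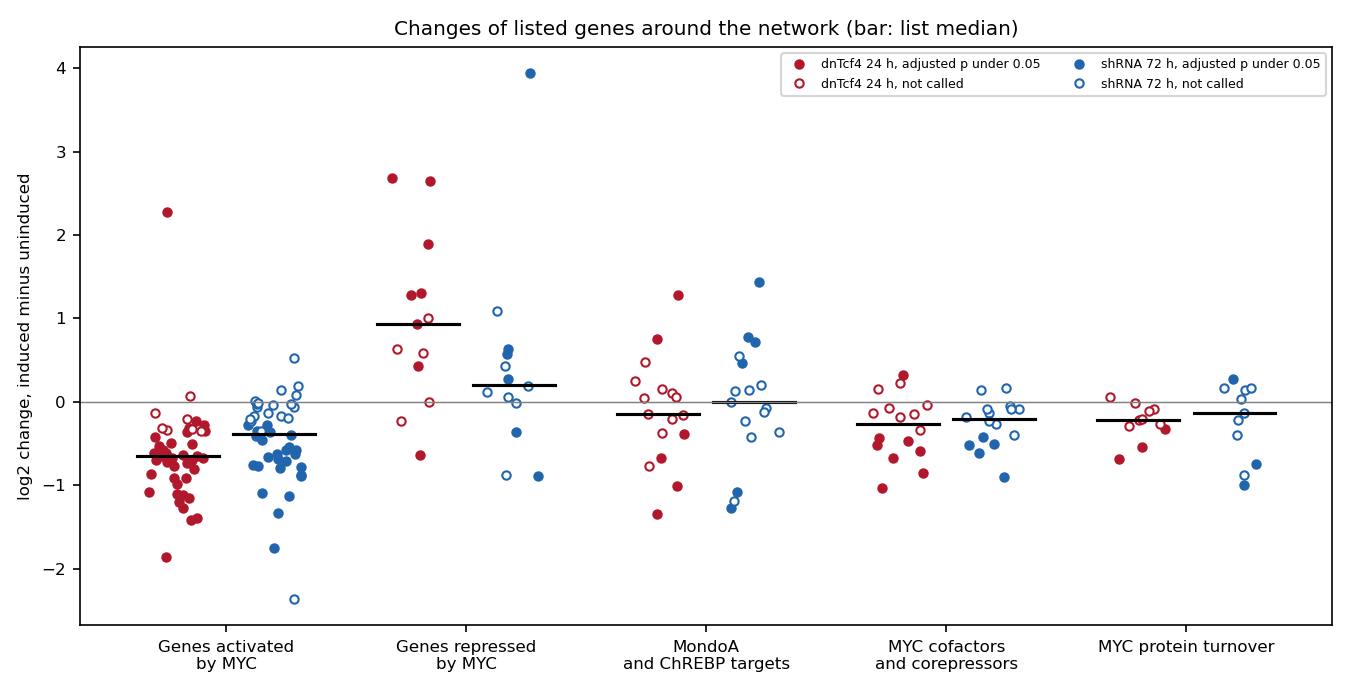
Log2 change on induction of each tested gene of 5 lists around the network, dnTcf4 (red) left and shRNA (blue) right in each list. Filled points have an adjusted p under 0.05 and bars are list medians; most genes activated by MYC lie below zero, with medians of −0.65 and −0.38, and the repressed genes have medians of 0.93 and 0.20.

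Targets of MondoA and ChREBP, the glucose-sensing factors that pair with MLX, moved in both directions. Of 23 listed genes 17 were tested, and with dominant-negative Tcf4 2 (11.8%) rose and 4 (23.5%) fell, against 15% and 18.6% of all genes. With the shRNA 4 (23.5%) rose and 2 (11.8%) fell, against 15.3% and 16.3% of all genes. These shares are near those of all genes. KHK, which starts fructose breakdown, fell by 1.34 ± 0.16 with dominant-negative Tcf4 (limma, adjusted p = 1.29e-05) and by 1.08 ± 0.16 with the shRNA (adjusted p = 9.78e-05). With dominant-negative Tcf4, ELOVL6, a fatty acid elongase, rose by 1.28 ± 0.11 and TXNIP, an inhibitor of glucose uptake, by 0.75 ± 0.12, and KLF11 fell by 1.01 ± 0.13 and the fatty acid synthase FASN by 0.67 ± 0.17. With the shRNA, ARRDC4, a relative of TXNIP, rose by 1.43 ± 0.19, ACACB by 0.78 ± 0.21 and malic enzyme ME1 by 0.72 ± 0.08, and the desaturase SCD fell by 1.28 ± 0.10. The ACACB call was lost without uninduced shRNA array 2 (adjusted p = 0.0646). The changes of 7 of the 17 genes (41.2%), against 15.6% of all genes, differed between the inductions, 3 of them higher and 4 lower with dominant-negative Tcf4.

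The network acts through cofactors and corepressors that alter chromatin. Of 16 tested, 7 (43.8%) fell and 1 (6.25%) rose with dominant-negative Tcf4, against 18.6% and 15% of all genes. With the shRNA 5 (31.2%) fell and 0 rose, against 16.3% and 15.3% of all genes. The medians were −0.26 with dominant-negative Tcf4 and −0.20 with the shRNA. RUVBL1, a helicase subunit of chromatin complexes that MYC recruits, fell by 0.85 ± 0.09 with dominant-negative Tcf4 (limma, adjusted p = 4.67e-06) and by 0.52 ± 0.09 with the shRNA (adjusted p = 0.000518). KAT2A, the histone acetyltransferase GCN5, and EP400 fell by 1.03 ± 0.15 and 0.67 ± 0.20 with dominant-negative Tcf4, and the deacetylase HDAC1 rose by 0.33 ± 0.07. The EP400 call was lost without dnTcf4-induced array 1 or 3 or uninduced dnTcf4 array 3 (adjusted p of 0.0595 to 0.0886). HCFC1 and WDR5, chromatin cofactors of MYC, fell by 0.91 ± 0.22 and 0.62 ± 0.13 with the shRNA.

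Of 11 genes that control the turnover of MYC protein, 3 (27.3%) fell and 0 rose with dominant-negative Tcf4, against 18.6% and 15% of all genes. With the shRNA 2 (18.2%) fell and 1 (9.09%) rose, against 16.3% and 15.3% of all genes, which is near the shares of all genes. SKP2, a ubiquitin ligase subunit, fell by 0.69 ± 0.10 with dominant-negative Tcf4 (limma, adjusted p = 9.61e-05) and by 0.75 ± 0.10 with the shRNA (adjusted p = 4.06e-05). AURKA, the mitotic kinase Aurora A, fell by 0.33 ± 0.10 with dominant-negative Tcf4 and by 1.0 ± 0.10 with the shRNA. The deubiquitinase USP36 fell by 0.54 ± 0.18 with dominant-negative Tcf4, and the ligase STUB1 rose by 0.27 ± 0.08 with the shRNA. The dnTcf4 falls in this list numbered 1, that of SKP2, with no variance trend and without dnTcf4-induced array 3 or uninduced dnTcf4 array 2 or 3. The call of USP36 was also lost with no filter and without dnTcf4-induced array 1 or uninduced dnTcf4 array 1, and that of AURKA with median centring. The STUB1 call was lost with median centring, no filter, no variance trend, only the arrays compared, or without shRNA-induced array 3 or uninduced shRNA array 3 (adjusted p of 0.0538 to 0.175). Among the network partners outside the members, MLXIP (MondoA) fell by 0.67 ± 0.13 with dominant-negative Tcf4 (adjusted p = 0.00144) and by 0.41 ± 0.13 with the shRNA (adjusted p = 0.033), and MGA, a MAX partner that represses germline genes, fell by 0.50 ± 0.17 with dominant-negative Tcf4 (adjusted p = 0.0458). The MGA call was lost with quantile normalization, median centring, no filter, without any 1 of the 6 dnTcf4 arrays, or without uninduced shRNA array 2 (adjusted p of 0.0503 to 0.128). The shRNA call of MLXIP was lost with quantile normalization, no variance trend, or without shRNA-induced array 2 or 3 or uninduced shRNA array 1 or 2 (0.051 to 0.145). MYCN had no called change on induction.

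The genes whose profiles lay nearest to that of MYC were found by Euclidean distance over the 12 arrays, after each log2 profile was centred on its own mean, among 12385 genes. The 5 nearest were MND1 (distance 0.43), MRPL16 (0.46), TCF3 (0.46), PSMG1 (0.50) and PRTFDC1 (0.50), against a median distance of 2.23. Their log2 changes were −1.12 to −0.84 with dominant-negative Tcf4 and −1.0 to −0.87 with the shRNA. For MXD1 the 3 nearest were VSIR (1.23), KRT80 (1.26) and LIPH (1.37), against a median of 5.92. Their log2 changes were 2.88 to 3.83 with dominant-negative Tcf4 and 1.15 to 1.52 with the shRNA. These distances rank genes by this measure on these arrays and share the 4 group means.

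**Figure D4:**
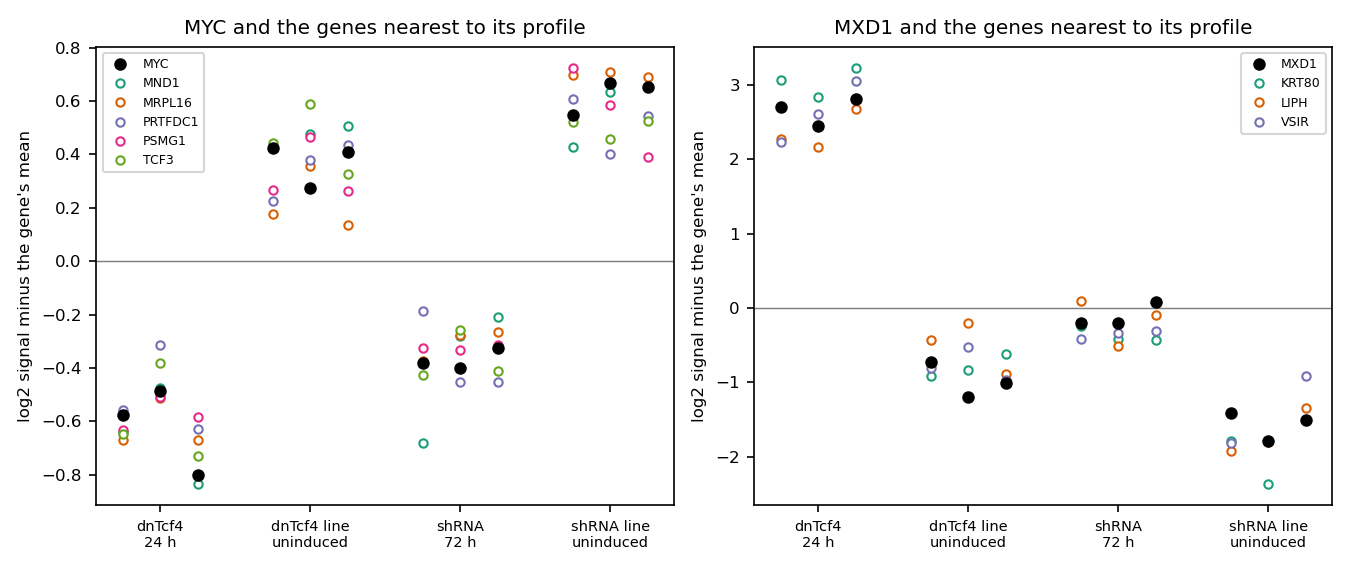
Log2 signal minus the gene's own mean over the 12 arrays, for MYC and its 5 nearest genes (left) and MXD1 and its 3 nearest genes (right). Each point is 1 array; MYC and its nearest genes lie below zero in all induced and above zero in all uninduced arrays, and MXD1 and its nearest genes are highest in the dnTcf4-induced arrays.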

How the data were processed

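Total RNA of Ls174T derivatives was hybridised to 12 arrays, 3 arrays in each of 4 groups. The deposited values are intensities (signals), 1 per probe set and array, linear and in arbitrary units. Per the submitters' processing notes, the software was MAS5 and GCOS (versions not stated there). The table carries no detection calls, every array had a trimmed mean of 100 as deposited, 6.58% to 9.25% of values per array lay under 1, and no 2 arrays were identical. The number of arrays limits the precision.

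Genes came from the array annotation, with symbols updated through Entrez numbers (54 probe sets were not matched): 41097 probe sets had 1 symbol, 1801 several and 11777 none. No genome build is given for the probes, so no probe coordinates are printed. Signals were floored at 1 and taken to log2. The 4 group means were fitted in limma 3.58.1 (R 4.3.3) with eBayes and a variance trend, over the 27280 non-control probe sets whose mean log2 signal was at or above the median of 3.35 (a signal of 10.2), with 8 residual degrees of freedom. P-values were adjusted by Benjamini-Hochberg over all of them, and 95% intervals come from the same fit. MYC values, gene lists and marker lists use each gene's brightest probe set. Promoter windows were taken from RefSeq (GRCh38.p14).

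The members and lists were chosen with earlier results of these data known. Every network probe set is accounted for. From each list up to 3 called genes with the largest decreases and up to 3 with the largest increases were named per induction, and the 5 genes nearest to MYC and the 3 nearest to MXD1 by distance. The alternatives were quantile normalization, centring of arrays on the median, an offset of 3.5 before log2, no filter, a filter at 6.29 log2, brightest probe sets only, no variance trend, array weights, only the arrays compared, a replicate block and leaving out each array. The fit was tested on simulated data.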

Additional observations from a re-analysis of the deposited data

Results flagged for a closer look

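The change on induction differed between the lines, by the test of the difference itself in limma, for 6 network probe sets of 3 genes. For MXD1 the change with dominant-negative Tcf4 minus that with the β-catenin shRNA was 2.17 on the log2 scale on 228846_at (adjusted p = 1.03e-05) and 2.34 on 226275_at (adjusted p = 7.51e-06). For MAX it was 0.52 on 209332_s_at (adjusted p = 0.0154), 0.88 on 209331_s_at (adjusted p = 0.00269) and 1.14 on 210734_x_at (adjusted p = 0.00217). For MXI1 it was −0.69 on 202364_at (adjusted p = 0.00126). With 3 arrays a group, no single array was examined as an outlier.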

How the results depend on the processing

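Over 84 results, 1743 values were recomputed under the alternatives, and 1637 kept their direction and side of the threshold. MYC fell under all of them, with log2 changes of −1.06 to −0.90 with dominant-negative Tcf4 and −1.04 to −0.97 with the shRNA. With only the brightest probe set of each gene, of which 9 were tested, 5 network genes were called with dominant-negative Tcf4, 6 with the shRNA and 3 for the difference. With all network probe sets the genes called numbered 6, 6 and 3. The brightest MAX probe set, 209332_s_at, was not called with dominant-negative Tcf4, while the dimmer 210734_x_at was. Leaving out single arrays gave 8 to 11 calls with dominant-negative Tcf4, 9 to 11 with the shRNA, 6 to 7 for the difference and 2 to 4 between the uninduced lines. In all, 53 recomputed values of called results missed the threshold and 10 of uncalled results passed it, and the cause was not tested. Besides single arrays, the lost calls were those of MYC between the uninduced lines, of MXI1 and MYCL 215491_at with dominant-negative Tcf4, of MXD3 and MXD1 206877_at with the shRNA, and of the difference on MAX 209332_s_at.

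Values that changed sign belonged to uncalled results. Under quantile normalization the MYC difference was −0.049 and the uninduced difference of MLX 217909_s_at was −0.021. With arrays centred on the median, MNT 204206_at with the shRNA was −0.04, and the uninduced differences of MAX were 0.11 on 209332_s_at, 0.10 on 209331_s_at and 0.01 on 208403_x_at. Array weights gave −0.025 for MNT 204206_at with the shRNA and −0.032 for MLX 217909_s_at between the uninduced lines. Leaving out single arrays gave −0.065 to 0.091 for the MYC difference. For MNT 204206_at it gave −0.038 to 0.29 with dominant-negative Tcf4, −0.037 to 0.085 with the shRNA, −0.049 to 0.28 for the difference and −0.30 to 0.033 between the uninduced lines. MLX 1570347_at ranged over −0.75 to 1.0 with dominant-negative Tcf4, −0.18 to 0.068 with the shRNA and −0.72 to 1.04 for the difference, and MLX 210752_s_at over −0.017 to 0.39 for the difference. MLXIPL ranged over −0.42 to 0.39 with dominant-negative Tcf4, and MAX 208403_x_at over −0.44 to 0.045 with the shRNA. Between the uninduced lines, MAX 209332_s_at ranged over −0.057 to 0.018, 209331_s_at over −0.11 to 0.039 and 208403_x_at over −0.33 to 0.081, and MLX 217909_s_at over −0.051 to 0.10.

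Same-numbered arrays of a line did not deviate together (correlations −0.02 to 0.06 in the dnTcf4 line and −0.04 to 0.02 in the shRNA line), so the numbers were not taken to pair arrays. With replicate number as a block, the MYC difference between the uninduced lines kept its value of −0.25 but had an adjusted p of 0.0501, and no other network call changed. Centring arrays on the median moved the share of called probe sets that were higher in uninduced dnTcf4 cells to 63.4%, against 48.3%, and the called differences of the changes numbered 2258, against 3253. The limits are 3 arrays a group, line, construct and duration that change together, and dim probe sets without detection calls, where the floor and the filter shape the value.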

Other observations

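MYCN, the neuronal MYC paralogue and no member here, differed between the lines. On 209757_s_at, the 1 of its 10 probe sets that passed the filter, the signals were 8.5, 2.7 and 11.4 in dnTcf4-induced cells, against 0.9, 6.7 and 7.8 in uninduced dnTcf4 cells, and 50.9, 74.7 and 83.4 in shRNA-induced cells, against 99.3, 117.4 and 95.8 in uninduced shRNA cells. All 6 arrays of the dnTcf4 line lay below all 6 of the shRNA line. The difference between the uninduced lines was called (limma, adjusted p = 4.27e-05), but all 3 uninduced dnTcf4 signals lay under the filter's signal of 10.2, so no size is given for it. Neither change on induction was called, with adjusted p of 0.449 with dominant-negative Tcf4 and 0.566 with the shRNA. The shRNA-induced signals nevertheless all lay below the uninduced shRNA ones, so a fall with the shRNA is not excluded.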
